A study of Mus musculus with 14 samples.

Results

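The comparison described here is that of Atg7KO-High with WT-High: sorted intestinal stem cells with and without the autophagy gene Atg7, 3 arrays each. Its members are the log2 differences of all probe sets that carry 1 gene symbol, which holds for 24675 of 25429 probe sets on the Mouse Gene 2.0 ST array. Of these, 15873 genes passed a filter on low values, at or over an array's 40th percentile in 3 or more of the series' 14 arrays, and were tested. All mice carried Lgr5-EGFP-IRES-CreERT2, an allele that places EGFP and a tamoxifen-activated Cre recombinase under the control of Lgr5. The knockout mice were in addition Atg7(fl/fl), and tamoxifen was given to both genotypes for 5 days in a row, with tissue taken 1 month after. Cells low in CD24 and high in EGFP, which the labels call intestinal stem cells, were sorted from individual mice, and 1 ng of RNA per sample was amplified. The 4 knockout and 4 wild-type samples of the low EGFP gate, the transit amplifying progeny, entered the fit and serve here only to show where the stem cell gate differs. The sources used here state no strain, age or sex, nor which part of Atg7 was floxed. The mean log2 level of Y-linked genes was 6.84 in Atg7KO-High-348 and 6.77 in WT-High-388. On the other EGFP high arrays it ran from 2.67 to 3.00, so each genotype mixed arrays with high and low Y-linked levels.

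Macroautophagy encloses cell material in a double membrane, the autophagosome, and delivers it to the lysosome. Atg7 is the E1-like enzyme that activates Atg12 and the LC3 proteins, and together with the E2-like enzyme Atg3 it couples LC3 to lipid on the growing membrane. Lgr5, a receptor for R-spondins that strengthens Wnt signalling, marks the dividing columnar stem cells at the crypt base, which lie between Paneth cells. Cdkn1a encodes p21, an inhibitor of cyclin-dependent kinases that p53 induces.

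Values are log2 levels after RMA, a method that corrects background, quantile normalizes probes and summarises them per probe set. Differences are knockout minus wild type in log2 units, with a standard error (SE) and a Benjamini-Hochberg adjusted p from limma over the 15873 genes. A gene is called at an adjusted p under 0.05. Arrays are said to be apart where all 3 knockout values lie below, or all 3 above, all 3 wild-type values. Single knockout values are given in the order Atg7KO-High-356, Atg7KO-High-348 and Atg7KO-High-386, and wild-type values in the order WT-High-388, WT-High-411 and WT-High-412.

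Limma called 2 genes, 0.0126% of those tested. Gm12292, a long noncoding RNA gene, rose, and Pxdn, which encodes the peroxidase that crosslinks collagen IV in basement membranes, fell. Their RefSeq start regions (GRCm38.p6, 250 bases before to 50 after the annotated start, each given along the gene's own strand and with no base in capitals) are shown because these are the 2 genes that passed the test. For Gm12292 only the first listed window was taken. It lies on chromosome 11 (chr11:64899034-64899333, minus strand), and that of Pxdn on chromosome 12 (chr12:29937786-29938085, plus strand).
Gm12292: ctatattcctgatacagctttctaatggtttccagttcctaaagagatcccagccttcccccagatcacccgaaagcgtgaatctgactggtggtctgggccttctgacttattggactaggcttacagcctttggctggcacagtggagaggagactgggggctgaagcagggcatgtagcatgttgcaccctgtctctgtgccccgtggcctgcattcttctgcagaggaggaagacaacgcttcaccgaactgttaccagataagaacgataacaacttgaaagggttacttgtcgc
Pxdn: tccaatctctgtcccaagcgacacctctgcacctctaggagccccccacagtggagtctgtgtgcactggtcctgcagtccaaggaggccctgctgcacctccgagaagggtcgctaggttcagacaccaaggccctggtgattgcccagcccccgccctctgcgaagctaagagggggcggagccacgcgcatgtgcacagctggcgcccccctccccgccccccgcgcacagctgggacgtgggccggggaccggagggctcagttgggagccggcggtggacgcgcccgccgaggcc

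The Gm12292 level was 6.97, 6.68 and 6.65 on the knockout arrays and 5.08, 4.62 and 4.58 on the wild-type arrays. The groups did not overlap, and the lowest knockout value lay well above the highest wild-type value. The rise was 2.01 (SE 0.16, limma adjusted p = 7.08e-05), a 4.02-fold higher level. In the low EGFP gate the levels ran from 4.87 to 5.03 in the knockout and from 5.10 to 5.43 in wild type, a difference of -0.33. Gm12292 was also the 1 gene called when the knockout effects of both gates were set against each other (2.33, SE 0.22, limma adjusted p = 0.00039), 0.0063% of those tested. The tested genes on either side of it on the chromosome differed by 0.29 (2810001G20Rik) and -0.16 (Elac2, a tRNA processing enzyme), and neither was called.

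The Pxdn level was 3.89, 3.83 and 3.66 in the knockout against 5.46, 5.31 and 4.78 in wild type. The 3 wild-type arrays stood above every other array of the series, since the 8 arrays of the low EGFP gate ran from 3.32 to 4.21. All values outside WT-High lay below every array's median. Pxdn may thus have passed the filter on low values through WT-High alone, which limits what its small p can show. Pxdn fell by 1.39 (SE 0.20, limma adjusted p = 0.0427). That adjusted p was 0.0739 without Atg7KO-High-356, 0.140 without Atg7KO-High-348, 0.114 without WT-High-388 and 0.358 without WT-High-411, so the call rests on each of these 4 arrays. With the Y-linked level as a covariate the limma adjusted p of Pxdn was 0.0929. Of the 20 basement membrane genes tested, Pxdn among them with laminins, collagen IV chains and integrins, 12 were higher and 8 lower, with a median of 0.12. Col4a6, a collagen IV chain, read 4.04, 4.17 and 4.04 against 3.91, 3.86 and 3.72.

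**Figure D1:**
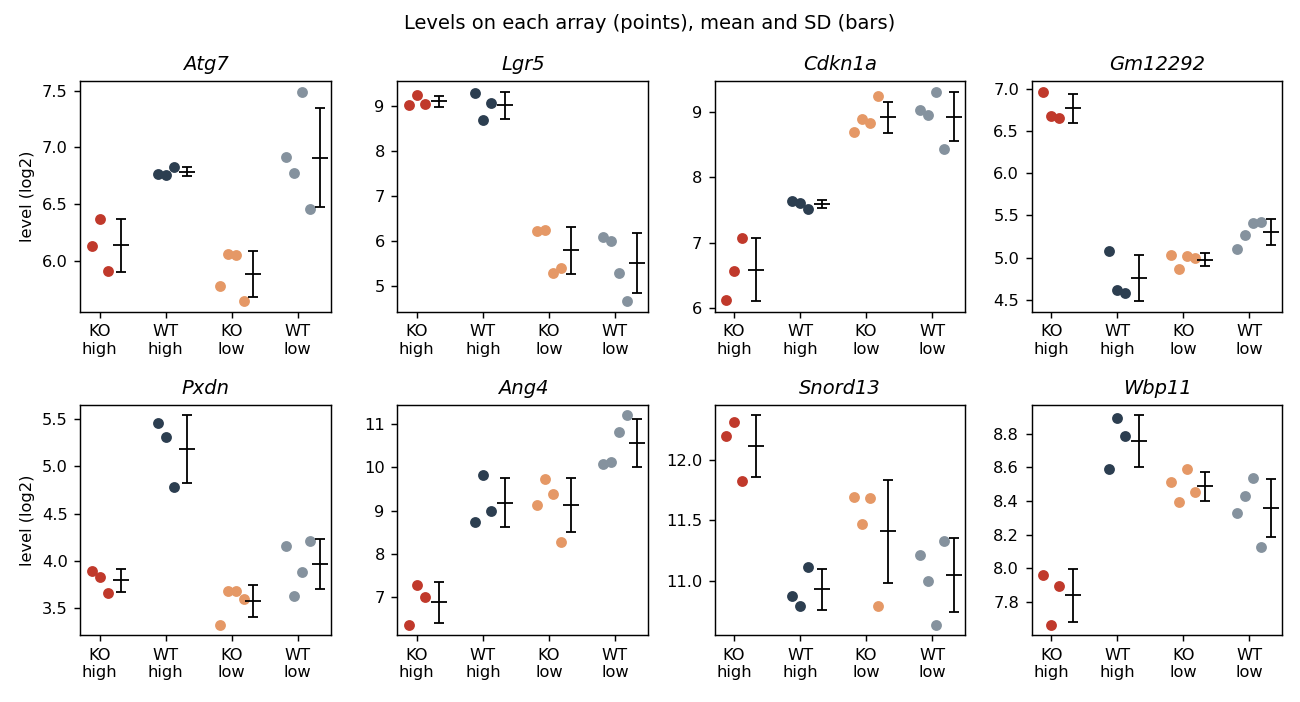
Level of 8 genes on each of the 14 arrays (y axis, log2 units after RMA) in knockout (KO) and wild-type (WT) samples of the EGFP high and EGFP low gates (x axis). Points are arrays, and the bars beside them give the mean and SD (n = 3 in the high and n = 4 in the low gate). Gm12292 sits between 6.65 and 6.97 in knockout EGFP high samples and between 4.58 and 5.08 in wild type, and Lgr5 overlaps between the genotypes.

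Atg7 itself read 6.13, 6.37 and 5.91 in the knockout and 6.77, 6.76 and 6.83 in wild type. The arrays were apart, and the difference was -0.65 (SE 0.22, limma adjusted p = 0.208). The exact two-sided permutation p was 0.1, the smallest that 3 against 3 samples can give. The low gate gave -1.02. The probe set may read parts of the transcript that remain after recombination, so its level does not measure how many cells lost the gene.

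The genes of LC3 conjugation and autophagosome closure gave a median of -0.17, 12 of 16 being lower and 4 apart (25.0%). Of all genes 15.2% were apart downward, and 16.5% when weighted to the list's mix of quintiles by mean level. The list holds Atg7 itself, its lowest member and 1 of the 4 apart, so these counts in part restate the knockout. Atg3, the E2-like partner of Atg7, read 8.40, 8.31 and 8.68 against 8.98, 9.20 and 9.12, a difference of -0.64 (SE 0.14, limma adjusted p = 0.131). Atg4b, a protease that processes LC3, differed by -0.47, with arrays apart. Of 18 initiation and nucleation genes 15 were lower (median -0.24) and 2 were apart (11.1%, below the 15.2% of all genes). These were Wipi1, a phosphoinositide-binding protein of the early membrane (-0.50), and Pik3c3, the lipid kinase of nucleation (-0.30), the latter chosen after its value was seen. Of 16 selective autophagy receptor genes 10 were lower (median -0.12) and 3 were apart downward (18.8%). That median was -0.05 without Atg7KO-High-356. The cargo receptor Sqstm1, or p62, read 6.62, 6.76 and 7.00 against 7.17, 7.20 and 7.16 (-0.38), Tax1bp1 differed by -0.32 and Tollip by -0.55. None of these genes was called. Medians of the 3 lists with the array SD as a covariate were 0.004, -0.05 and -0.01.

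In the lysosome list 28 of 32 genes were lower, with a median of -0.22, and 9 had arrays apart downward (28.1%). Genes at the same levels, meaning all genes tested weighted to the list's mix of quintiles by mean level, were apart downward in 23.5% of cases. The lowest 3 were subunits of the V-ATPase, the proton pump that acidifies the organelle. Atp6v1b2 read 6.08, 6.74 and 6.47 against 7.59, 7.31 and 7.33 (-0.98, SE 0.26), Atp6v0d1 read 6.06, 6.22 and 6.49 against 7.20, 7.11 and 7.03 (-0.86, SE 0.21), and Atp6v1a differed by -0.72. All 3 had arrays apart, with limma adjusted p from 0.133 to 0.160. Their low-gate differences were 0.06, 0.09 and 0.02. Both quantile normalizing again and cyclic loess moved the list's median to -0.08, and it was 0.05 with the array SD as a covariate.

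Most stem cell identity genes overlapped between the genotypes. Both genotypes were sorted on the same high gate of EGFP from the Lgr5 locus, which in part sets similar levels of Lgr5 and of genes expressed with it. The overlap therefore cannot show that stem cell identity was unaffected. Lgr5 read 9.03, 9.25 and 9.05 in the knockout and 9.30, 8.69 and 9.07 in wild type, far above the 4.65 to 6.25 of the low gate, as sorting on EGFP from the Lgr5 locus sets. Its difference was 0.09 (SE 0.35), and it was -0.01 after median centring and -0.08 without WT-High-411. Cyclic loess gave 0.28, repeated quantile normalization 0.26 and the array SD as a covariate 0.71. Olfm4, a secreted glycoprotein of crypt base cells, differed by 0.05 (SE 0.23), and by -0.05 and -0.03 under the same settings. Ascl2, the Wnt-induced transcription factor of these cells, differed by -0.15 (SE 0.21), and by 0.03 without WT-High-411. Over the 24 crypt base genes tested, 15 were higher and 9 lower, the median was 0.07 and 1 was apart. That gene was Sox9, a transcription factor of crypt progenitors and Paneth cells, at 8.88, 9.13 and 8.85 against 9.52, 9.39 and 9.57 (-0.54, SE 0.18). Without WT-High-411 the list's median was -0.01, and it was -0.03 after median centring. Repeated quantile normalization gave 0.18, and cyclic loess and the array SD as a covariate each gave 0.21. Under cyclic loess 0 members were apart downward and 2 upward. Of the 24, 19 lie in the upper 2 quintiles of all genes by mean level. Genes at the same levels were apart downward in 25.2% of cases, against 4.17% of this list. Among 8 reserve and regenerative stem cell markers 7 read higher (median 0.15), and this median was 0.01 without Atg7KO-High-348. Wnt feedback genes and targets had a median of -0.14 (17 of 26 lower), with the Wnt effector Ctnnb1, or beta-catenin, at 8.56, 8.86 and 8.98 against 9.39, 9.45 and 9.55. Notch pathway genes had a median of -0.08 (14 of 21 lower). The Wnt median was 0.007 with quantile normalization again and -0.03 without Atg7KO-High-356, and the Notch median -0.22 without Atg7KO-High-386.

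The level of a gene and its class moved with the difference, which bears on every group that follows. Over all genes tested the median was -0.03, with 53.8% negative, and after centring each array on its median it was -0.14. Limma gave an unadjusted p under 0.05 to 950 genes with a higher level (5.99%) and 1569 with a lower one (9.88%). The count of lower genes was 884 without Atg7KO-High-356, 916 without WT-High-411 and 1010 without WT-High-412, and that of higher genes 580 and 596 without the last 2. The balance of directions depends on scaling. Repeated quantile normalization gave 983 lower and 1019 higher genes, cyclic loess 858 and 1017, and median centring 2316 and 497. With the array SD as a covariate there were 496 lower and 492 higher genes. With arrays apart, 2405 genes were lower and 1615 higher, against 1764 and 1647 after repeated quantile normalization, 1660 and 1711 after cyclic loess, and 3351 and 910 after median centring. In the quintile of genes with the lowest mean level the median was 0.13, and over the next 4 quintiles it was 0.09, -0.05, -0.20 and -0.24. The share of genes with arrays apart downward rose from 2.9% in the lowest quintile to 32.3% in the highest. The SD of all values on an array was 1.90, 1.93 and 1.98 in the knockout and 1.99, 2.06 and 2.05 in wild type, so the knockout arrays were the narrower ones. The mean SD was 1.935 ± 0.0382 against 2.036 ± 0.0384 (SD, n = 3 each, exact two-sided permutation p = 0.1, the smallest possible). Cyclic loess, which evens out such spread, reversed that difference from -0.101 to 0.0117. The part of array spread in the gene results was not tested beyond the values given with it as a covariate.

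Noncoding RNA genes stood higher in knockout stem cells, while protein-coding genes stood slightly lower. The classes are RefSeq biotypes and were chosen after their values were seen. Of 86 small nucleolar RNA (snoRNA) genes, whose products guide the chemical modification of ribosomal RNA, 78 were higher and 39 were apart upward (45.3%), against 10.2% of all genes. None was apart downward. Their median was 0.79, and their mean level was 6.49, 6.62 and 6.57 in the knockout against 5.90, 5.86 and 5.95 in wild type. The snoRNA median of the low gate was -0.21, with means from 5.47 to 6.36 in the knockout and 5.69 to 6.32 in wild type, which overlap. Of 214 microRNA genes, 183 were higher and 58 were apart upward (27.1%), with a median of 0.38 against -0.13 in the low gate. Of 1339 long noncoding RNA genes, 1059 were higher and 314 were apart upward (23.5%), with a median of 0.20. Pseudogenes had a median of 0.17 (310 of 456 higher). Of 13620 protein-coding genes 8036 were lower, 17.2% were apart downward and 7.71% upward, with a median of -0.07.

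In every quintile of level, snoRNA, microRNA and long noncoding RNA genes had a higher median than protein-coding genes. Pseudogenes did not, at 0.10 against 0.12 in the lowest quintile. Long noncoding RNA genes had 0.17 there, with 104 of 580 apart upward, where 15.6% of all genes were. As 580 and 429 of these 1339 genes lie in the lowest 2 quintiles, 10.2% is a low background for their share. From the lowest to the highest quintile, snoRNA genes had medians of 0.59, 0.46, 0.62, 0.88 and 0.92, where protein-coding genes had 0.12, 0.06, -0.09, -0.21 and -0.26. Among the 15 snoRNA genes of the highest quintile, 13 were apart upward. Class medians with the array SD as a covariate were 0.50 for snoRNA, 0.02 for microRNA and 0.02 for long noncoding RNA genes. Cyclic loess gave 0.75, 0.33 and 0.11, and a repeated quantile normalization 0.78, 0.36 and 0.12. Many snoRNA and microRNA genes lie within introns of other genes, so their probe sets may also read unspliced transcripts of the host gene, and the 2 cannot be told apart here. Each sample was amplified from 1 ng of RNA, and the values used here hold no measure of RNA input or of its amplification, so the part of either in the class differences was not tested.

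**Figure D2:**
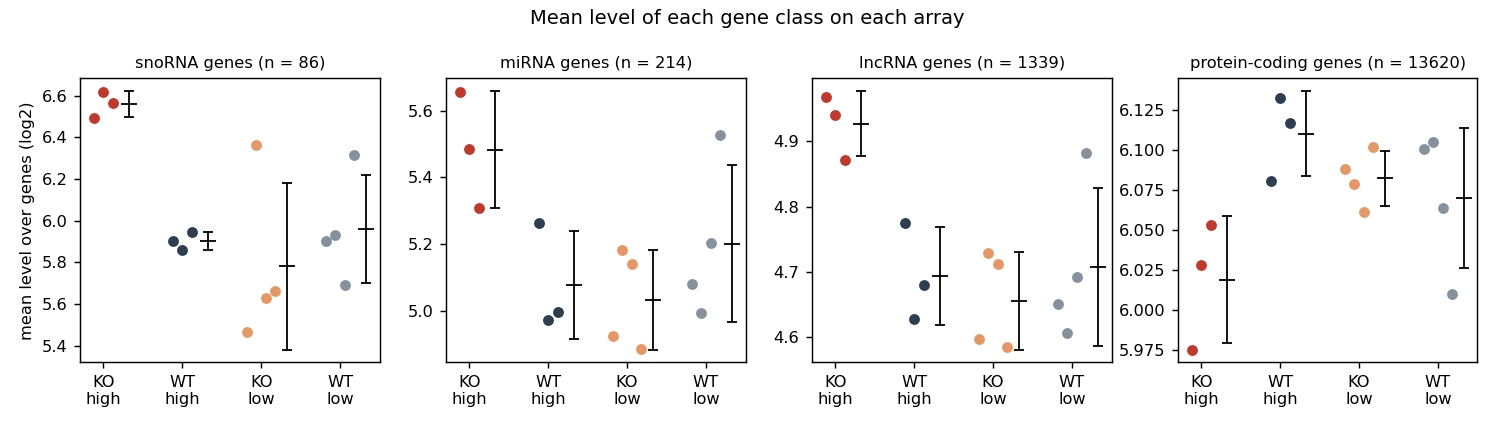
Mean log2 level of 4 RefSeq gene classes on each array (y axis) by genotype and gate (x axis). Points are arrays, bars the mean and SD over arrays (n = 3 in the high and n = 4 in the low gate), and each panel has its own scale. The snoRNA mean lies between 6.49 and 6.62 in knockout EGFP high samples and between 5.86 and 5.95 in wild type, while the low gate overlaps.

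**Figure D3:**
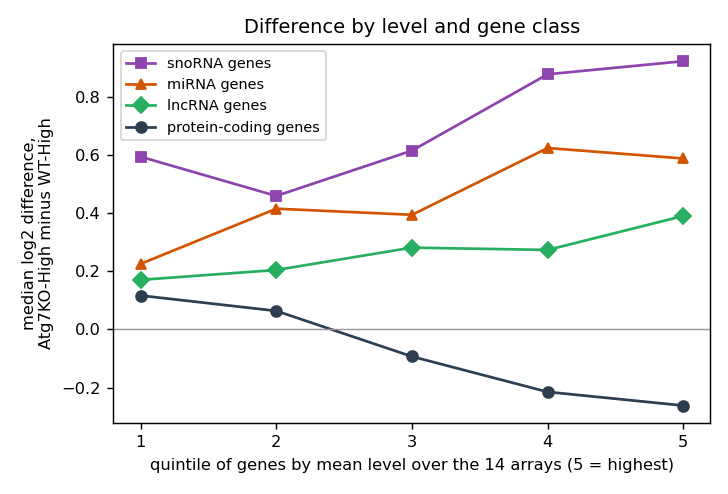
Median log2 difference, Atg7KO-High minus WT-High (y axis), by quintile of mean level over the 14 arrays (x axis, 5 is the highest) for 4 RefSeq gene classes. Protein-coding genes go from 0.12 in the lowest quintile to -0.26 in the highest, and snoRNA genes stay between 0.46 and 0.92.

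Among named noncoding genes, Snord13, a box C/D RNA that guides acetylation of 18S ribosomal RNA, read 12.20, 12.31 and 11.83 against 10.87, 10.79 and 11.12. Its difference was 1.19 (SE 0.24, limma adjusted p = 0.131). Snora43, a box H/ACA RNA, read 7.35, 7.15 and 6.85 against 6.32, 6.12 and 6.19 (0.91, SE 0.19). Rpph1, the RNA subunit of ribonuclease P, which trims the 5′ end of tRNA precursors, read 10.61, 10.16 and 10.03 against 9.06, 8.68 and 8.23, a difference of 1.61 (SE 0.34). All 3 had arrays apart. Their low-gate differences were 0.37 for Snord13, -0.38 for Snora43 and 0.36 for Rpph1. The microRNA genes Mir763 and Mir5112 differed by 1.26 and 0.97, again with arrays apart. Mir763 was 5.27, 6.10 and 6.37 in the knockout, and WT-High-388 was the highest wild-type array at 4.89. A separate list of 18 long noncoding RNAs had 16 tested members, of which 14 were higher, with a median of 0.62 and -0.15 in the low gate. Of the 16, 13 were apart upward (81.2%, 8.06% at the same levels). The list holds Gm12292 and was chosen with results of these data known, so its share is set in part by that choice and is no separate support. Kcnq1ot1, the antisense RNA of the imprinted Kcnq1 cluster, read 9.37, 8.96 and 8.40 against 8.39, 6.86 and 7.38, a difference of 1.37 (SE 0.43), with the groups nearly touching. Neat1, the scaffold of paraspeckles, differed by 1.04 and Malat1, of nuclear speckles, by 0.58. Gas5 and Snhg12, which host snoRNAs in their introns, differed by 0.76 and 0.89, and the last 4 were chosen after their values were seen. The mature mmu-miR-763, read from RefSeq (GRCm38.p6, chr10:120448052-120448073, minus strand) with its seed, bases 2 to 8, in capitals, is shown as the one microRNA named by rule that the table holds.
mmu-miR-763: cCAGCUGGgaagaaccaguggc

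Protein-coding genes and gene segments were also among those with the smallest p that were higher in the knockout with arrays apart. Dnajb7, a DnaJ-family cochaperone, read 4.34, 4.11 and 4.16 against 3.45, 2.94 and 3.35 (0.96, SE 0.17, limma adjusted p = 0.0993). H2ab1, a histone H2A variant, read 5.48, 5.22 and 5.00 against 3.89, 3.45 and 4.07 (1.43, SE 0.26). Aspn, a small proteoglycan of the extracellular matrix, differed by 1.41, Kcnrg, a regulator of potassium channels, by 1.13, Slc16a4, of the monocarboxylate transporter family, by 0.99, and Rps12l1, a near copy of Rps12 whose probe set may read both, by 0.93. The T cell receptor segment Trav9-2 differed by 1.48. Limma adjusted p over these genes ran from 0.0993 to 0.131, so none was called. On the arrays outside the knockout EGFP high group, Dnajb7 read at most 3.45, Kcnrg at most 3.54 and Aspn at most 4.03, below every array's median. These genes may thus have passed the filter on low values through that group alone, which limits what their small p can show. In the low gate Dnajb7, Trav9-2, Kcnrg, Slc16a4 and Aspn differed by -0.37 to -0.22, while H2ab1 and Rps12l1 differed by 0.30 and 0.25, the direction seen in the high gate.

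The genes with the smallest p that were lower in the knockout with arrays apart had varied roles. Wbp11, a protein of pre-mRNA splicing, read 7.96, 7.66 and 7.89 against 8.59, 8.89 and 8.78, a difference of -0.92 (SE 0.15, limma adjusted p = 0.089). Snw1 and Usp39, also proteins of splicing, differed by -0.83 and -1.03, with Snw1 at 7.67, 7.78 and 7.72 against 8.48, 8.67 and 8.51. Cand1, which exchanges the adaptors of cullin ubiquitin ligases, differed by -0.92, Copb1, of the COPI vesicle coat, by -0.98, and Ppp2ca, the catalytic subunit of protein phosphatase 2A, by -0.72. Cdk5rap3, a factor of the UFM1 modification pathway, differed by -0.88, Gipc2, a PDZ domain protein, by -0.80 and Mns1, a protein of cilia and flagella, by -0.93. All had arrays apart, and limma adjusted p ran from 0.089 to 0.131. Their low-gate differences lay between -0.27 and 0.41, with Gipc2 at 0.41. Tdg-ps2, a pseudogene of the DNA glycosylase Tdg whose probe set may also read that gene, read 4.84, 4.47 and 4.75 against 6.21, 6.43 and 6.84 (-1.81, SE 0.29, limma adjusted p = 0.089). Its difference in the low gate was -1.44, so it was lower in knockout cells of both gates.

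Mitotic genes were the list with the largest share of members apart downward. Of 30 G2 and mitosis genes tested 29 were lower and 21 were apart (70.0%), against 15.2% of all genes and 29.8% of genes at the same mix of level quintiles. The median was -0.47, and it was 0.02 in the low gate. The list mean was 7.79, 7.71 and 7.93 in the knockout and 8.30, 8.22 and 8.26 in wild type, with a gap between the groups. No member was called, and 18 had an unadjusted limma p under 0.05, where 9.88% of all genes were lower at that p. For the difference between the gates 13 members had an unadjusted p under 0.05, all toward a lower knockout value in EGFP high cells, against 8.49% of all genes (5.53% toward a higher one). Cyclic loess gave a median of -0.25, repeated quantile normalization -0.27 and the array SD as a covariate -0.31, and 13 members were apart under either of the first 2.

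Ttk, a kinase of the spindle checkpoint, read 6.75, 7.08 and 7.15 against 7.66, 7.65 and 7.70 (-0.68, SE 0.16, limma adjusted p = 0.131). Plk1, the polo-like kinase of mitotic entry, read 7.63, 7.72 and 8.21 against 8.64, 8.51 and 8.39 (-0.66, SE 0.16). Nek2, a kinase of centrosome separation, read 5.80, 5.91 and 5.83 against 6.40, 6.61 and 6.43 (-0.63, SE 0.18). The groups were apart for all 3. Kif11, a motor that builds the bipolar spindle, differed by -0.71, Aurka by -0.67, Cdk1 by -0.45 and the proliferation marker Mki67 by -0.32, these being chosen after their values were seen. Mad2l1, a checkpoint protein, was the 1 member that was not lower, at 0.02.

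Start regions of mitotic genes carry elements known to act in the cell cycle, the CHR (TTTGAA) and the CCAAT box, which are bound by the DREAM or MuvB complex and by NF-Y. Both were searched on both strands in the RefSeq window of 250 bases before to 50 after the start, and where they overlap both were counted. TTTGAA was in 19 of 25 windows of the list (76.0%), from 24 of its 30 tested members, against 12.7% of 15217 windows of all genes tested. CCAAT was in 20 of 25 windows (80.0%) against 37.4%. It was also in 16 of 22 windows (72.7%) of the cholesterol synthesis and uptake list, so it is not particular to mitotic genes. The 3 kinases are shown with both motifs, as letters on either strand, in capitals, in the order Plk1 (chr7:122159185-122159484), Ttk (chr9:83834439-83834738) and Nek2 (chr1:191821223-191821522), all plus strand, GRCm38.p6. TTTGAA begins 30 bases after the start in Plk1 and 7 after it in Ttk, and was not found in the window of Nek2.
Plk1: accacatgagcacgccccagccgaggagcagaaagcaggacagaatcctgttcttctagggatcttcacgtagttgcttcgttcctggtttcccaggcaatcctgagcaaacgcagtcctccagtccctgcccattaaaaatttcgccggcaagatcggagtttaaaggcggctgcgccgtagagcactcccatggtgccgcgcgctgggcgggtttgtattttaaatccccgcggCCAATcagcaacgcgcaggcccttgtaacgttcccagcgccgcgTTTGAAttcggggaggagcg
Ttk: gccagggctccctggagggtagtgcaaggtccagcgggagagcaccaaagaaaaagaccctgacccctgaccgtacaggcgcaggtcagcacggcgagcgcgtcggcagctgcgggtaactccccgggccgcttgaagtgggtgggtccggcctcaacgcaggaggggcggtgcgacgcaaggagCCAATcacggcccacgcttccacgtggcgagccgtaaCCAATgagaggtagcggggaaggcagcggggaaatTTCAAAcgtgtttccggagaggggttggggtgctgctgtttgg
Nek2: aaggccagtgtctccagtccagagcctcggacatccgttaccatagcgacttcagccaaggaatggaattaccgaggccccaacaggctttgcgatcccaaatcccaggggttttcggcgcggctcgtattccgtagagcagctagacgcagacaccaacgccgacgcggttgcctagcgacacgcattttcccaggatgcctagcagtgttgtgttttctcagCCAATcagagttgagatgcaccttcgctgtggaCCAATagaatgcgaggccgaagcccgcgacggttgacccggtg

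Genes of the preceding phases read lower as well. Of 33 S phase genes 28 were lower and 13 apart (39.4%, against 25.3% at the same levels), with a median of -0.39. The list mean was 7.03, 7.34 and 7.31 against 7.32, 7.84 and 7.65, so the groups overlapped through WT-High-388. The median was -0.21 without Atg7KO-High-356, -0.60 without WT-High-388 and -0.08 with the array SD as a covariate. Slbp, which binds the stem-loop of histone mRNA, was 7.54, 7.52 and 7.51 against 8.15, 8.24 and 8.00. Rrm1, the large subunit of ribonucleotide reductase, was 7.60, 8.00 and 7.94 against 8.39, 8.96 and 8.66, and Gins1, of the replicative helicase, differed by -0.74. All 3 were apart. Of 19 genes of G1 cyclins, their kinases and inhibitors, 18 were lower and 8 apart (42.1%, 23.8% at the same levels), median -0.33, among them Ccnd1, or cyclin D1, at 7.74, 8.35 and 8.24 against 8.44, 9.29 and 8.55. With quantile normalization again 4 of these were apart, and with cyclic loess 2, at medians of -0.22 and -0.18. Of 29 DNA repair genes 26 were lower and 9 apart (31.0%, 20.6% at the same levels), median -0.27, with the mismatch repair gene Msh6 at -0.41 and the damage kinase gene Atm at -0.39. With cyclic loess or quantile normalization again the repair median was -0.14, with 4 apart, without Atg7KO-High-386 it was -0.41, and -0.03 with array SD as covariate.

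The inhibitors Cdkn1a and Cdkn2a differed in opposite directions. Cdkn1a read 6.11, 6.56 and 7.08 in the knockout and 7.63, 7.61 and 7.51 in wild type. The arrays were apart, the knockout samples spread over nearly 1 log2 unit, and the difference was -1.003 (SE 0.25, limma adjusted p = 0.133). In the low gate Cdkn1a was higher throughout, from 8.43 to 9.31, with a difference of -0.01. Set against that, the EGFP high difference was lower by -0.99 (SE 0.33, limma adjusted p = 0.254). Cdkn2a, which encodes p16 and p19Arf, read 5.27, 5.24 and 5.02 against 4.77, 4.59 and 4.52 (0.55, SE 0.14, limma adjusted p = 0.133). Over the 25 p53 checkpoint genes tested the median was 0.02, with 13 higher and 12 lower. Of them 8.0% were apart downward (15.4% at the same levels) and 4.0% upward (9.83% at the same levels). The members apart downward were Cdkn1a and Sesn2, a stress-induced inhibitor of mTORC1 signalling (-0.44, chosen after its value was seen), and the 1 apart upward was Cdkn2a. Leaving out single arrays moved that median between -0.05 and 0.05. BCL2 family and apoptosis genes had a median of -0.13 (14 of 22 lower). Of these, 2 were apart (9.09%, below the 19.1% at the same levels). Bak1, a pore-forming death effector, read 8.95, 8.92 and 9.48 against 9.75, 10.12 and 9.70. The BCL2 list's median was 0.01 with cyclic loess or quantile normalization again and 0.001 without Atg7KO-High-356. Dissociation stress and immediate early genes, a sign of handling during cell isolation, had a median of 0.01 (13 of 24 higher), while Klf4, which also promotes differentiation, differed by -1.06 and Klf2 by 0.54. That median was -0.16 without Atg7KO-High-348, 0.13 without Atg7KO-High-356 and 0.15 without Atg7KO-High-386.

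**Figure D4:**
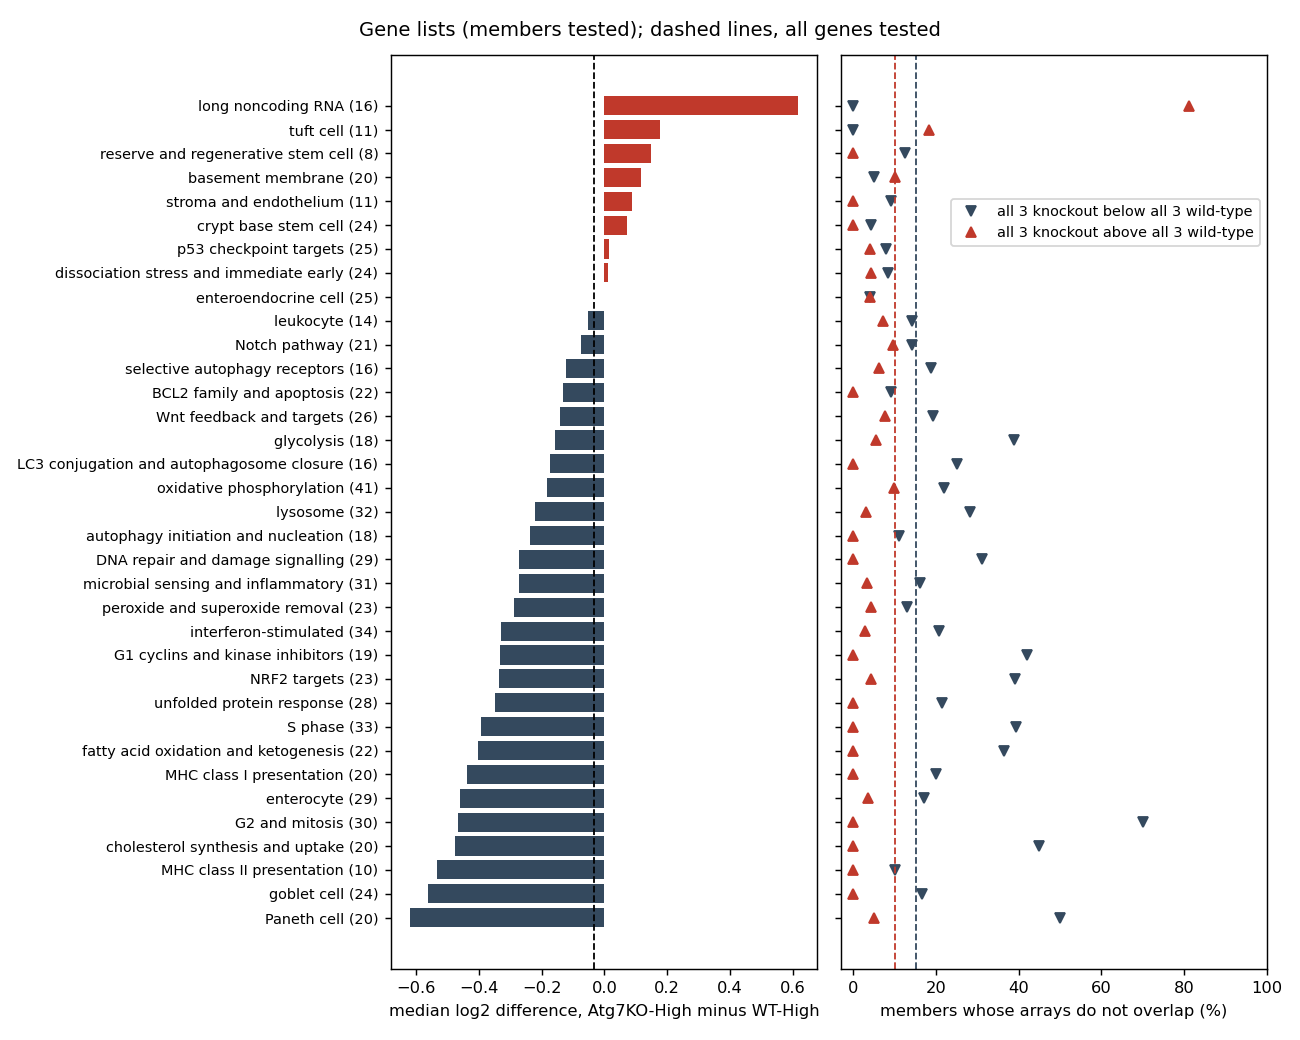
Gene lists in Atg7KO-High against WT-High, with the number of members tested in parentheses. The left panel gives the median log2 difference and the right panel the percent of members whose arrays are apart downward or upward, with dashed lines for all genes tested (15.2% and 10.2%). G2 and mitosis genes reach 70.0% downward and long noncoding RNAs 81.2% upward. The lists were chosen with earlier results of these data known, and the long noncoding RNA list holds the called gene Gm12292.

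All 20 tested genes of cholesterol synthesis and uptake were lower, and 9 were apart (45.0%, against 22.3% at the same levels). Their median was -0.48, and 0.09 in the low gate. Hmgcs1, the synthase ahead of the rate-limiting reductase, read 7.14, 7.63 and 8.12 against 8.55, 8.73 and 8.56, a difference of -0.99 (SE 0.22, limma adjusted p = 0.131). Dhcr7, the last step of the pathway, read 5.58, 5.67 and 5.81 against 6.16, 7.01 and 6.52 (-0.87, SE 0.26), and Mvd, mevalonate diphosphate decarboxylase, differed by -0.66. Srebf2, the transcription factor that drives the pathway, differed by -0.48 with arrays apart, and was chosen after its values were seen. The median was -0.27 with the array SD as a covariate and lay between -0.61 and -0.31 under the other alternatives.

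Genes of fuel use differed less evenly. Of 22 genes of fatty acid oxidation and ketogenesis 18 were lower and 8 apart (36.4%, 27.6% at the same levels), median -0.40, with Bdh1, which makes the ketone body beta-hydroxybutyrate, at 7.74, 7.78 and 7.85 against 8.17, 8.34 and 8.47. With cyclic loess that median was -0.19, with repeated quantile normalization -0.24, and with the array SD as a covariate 0.08. In glycolysis 12 of 18 genes were lower and 7 apart (38.9%, 19.1% at the same levels), median -0.16. The phosphofructokinase genes Pfkl, Pfkp and Pfkm, which encode the enzyme of the committed step, were all apart, at -0.92, -0.90 and -0.45. Pfkl read 4.62, 4.99 and 5.25 against 5.62, 5.93 and 6.07. Of 41 oxidative phosphorylation genes 26 were lower, 9 apart downward and 4 upward, median -0.18, with 22.0% apart downward against 29.1% at the same levels. With cyclic loess 8 were apart downward and 13 upward, and with quantile normalization again 9 and 9. Ndufv1 and Ndufs1, subunits of complex I, differed by -0.63 and -0.55. The glycolysis and oxidative phosphorylation medians were 0.01 and 0.04 with the array SD as a covariate, and -0.10 and -0.004 with cyclic loess. The glycolysis median was -0.09 without Atg7KO-High-348, -0.24 without Atg7KO-High-386 and -0.27 without WT-High-388.

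Targets of NRF2, the transcription factor of the oxidative stress response, were lower in 17 of 23 cases (median -0.34), and 9 were apart downward (39.1%, 23.1% at the same levels). Of the 23, 20 were higher in the low gate, at a median of 0.13. Txnrd1, thioredoxin reductase, read 7.49, 7.52 and 7.75 against 8.25, 8.33 and 8.16 (-0.66, SE 0.14, limma adjusted p = 0.131). Tkt and Taldo1, of the pentose phosphate pathway, differed by -0.61 and -0.64. The NRF2 median was 0.12 with the array SD as a covariate, -0.21 with cyclic loess and -0.21 without Atg7KO-High-356. Among genes that remove peroxide and superoxide 17 of 23 were lower and 3 apart downward (13.0%, below the 21.7% at the same levels), at a median of -0.29, with Sod2, the mitochondrial superoxide dismutase, at -0.58. That median was -0.12 without Atg7KO-High-386, -0.19 without WT-High-411, -0.14 with cyclic loess and 0.006 with the array SD as a covariate. Unfolded protein response genes had a median of -0.35 (23 of 28 lower, 6 apart, which is 21.4% against 27.9% at the same levels), with the disulfide isomerase Pdia4 at 7.52, 8.04 and 8.36 against 8.75, 9.02 and 8.72, and the median was -0.22 with repeated quantile normalization and -0.16 with cyclic loess.

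Markers of other epithelial lineages were present in the gate, with medians of -0.62 for Paneth, -0.56 for goblet and -0.46 for enterocyte markers. Fewer cells of a type and less RNA per cell cannot be told apart in these bulk samples, and selection for low CD24 is known to remove Paneth cells. Of 20 Paneth markers 17 were lower, 10 apart downward (50%, 27% at the same levels) and 1 upward, with a median of -0.62. In the low gate the median was -0.60, with 17 of 20 lower. For the difference between the gates limma called 0 members, and 0 had an unadjusted p under 0.05. Ang4, an antimicrobial ribonuclease, read 6.36, 7.28 and 7.01 against 8.73, 9.82 and 9.00 (-2.30, SE 0.40, limma adjusted p = 0.0986). Itln1, a lectin, read 6.95, 9.07 and 8.65 against 9.52, 11.36 and 10.40, and Mptx2, a pentraxin, 5.44, 5.90 and 6.22 against 7.85, 10.62 and 8.97. The defensin genes are near-identical copies whose probes can read each other, so Defa values were not set apart.

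**Figure D5:**
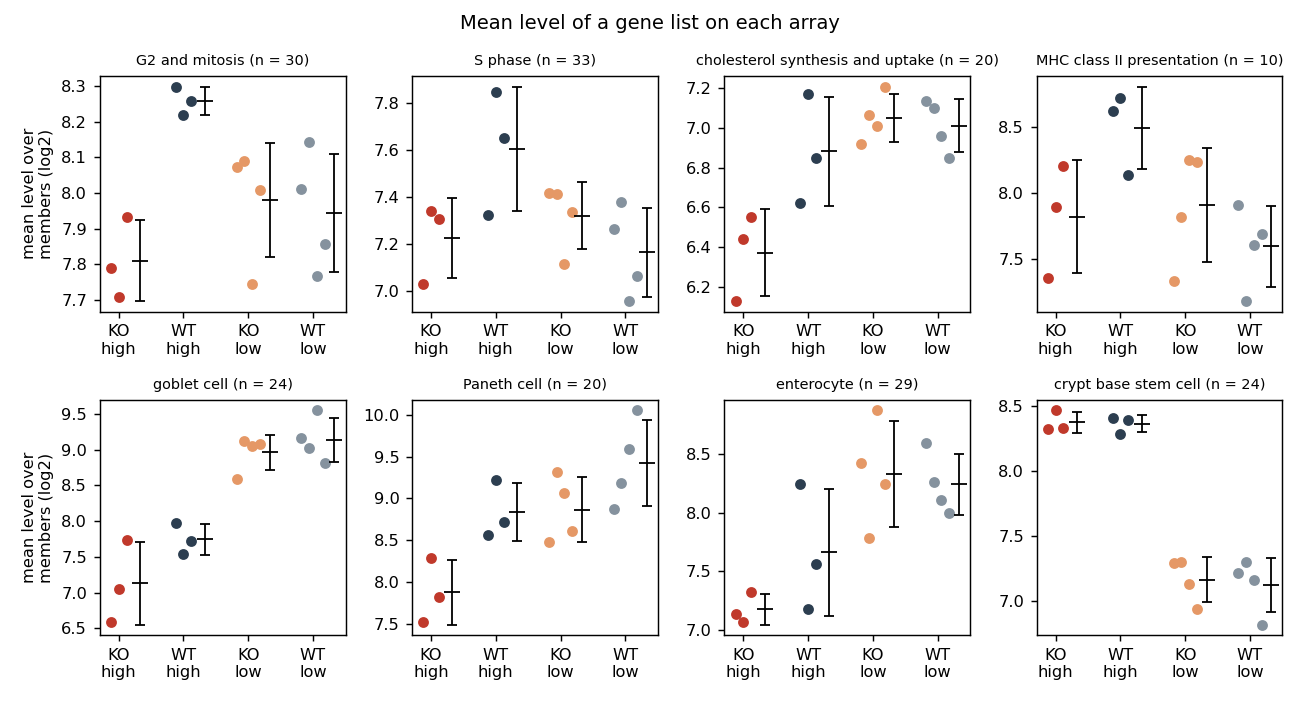
Mean log2 level of the tested members of 8 gene lists on each array (y axis) by genotype and gate (x axis). Points are arrays, bars the mean and SD over arrays (n = 3 in the high and n = 4 in the low gate), and each panel has its own scale. The mitosis mean lies between 7.71 and 7.93 in knockout and between 8.22 and 8.30 in wild-type EGFP high samples, while the goblet mean of Atg7KO-High-386, 7.74, lies within the wild-type range.

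Goblet markers were lower in 23 of 24 cases, with a median of -0.56, but 4 were apart (16.7%, below the 25.5% at the same levels). Their mean was 6.59, 7.05 and 7.74 in the knockout and 7.98, 7.54 and 7.72 in wild type, so Atg7KO-High-386 lay within the wild-type range. Without Atg7KO-High-356 the median was -0.26. Atoh1, the transcription factor of secretory fate, read 6.16, 7.10 and 7.56 against 8.30, 7.77 and 7.88 (-1.05, SE 0.32). Fcgbp, a mucus protein, read 8.49, 9.13 and 10.32 against 10.59, 10.05 and 10.72, with an overlap. Of 29 enterocyte markers 26 were lower and 5 apart downward (17.2%, 25.3% at the same levels), and their median of -0.46 was -0.10 without WT-High-388. Fabp1, an enterocyte fatty acid binding protein, read 8.30, 8.02 and 8.10 against 10.35, 8.98 and 9.32. Enteroendocrine markers had a median of -0.001 (13 of 25 lower). It was 0.35 without Atg7KO-High-356 and -0.45 without Atg7KO-High-386, whose enteroendocrine means were 5.13 and 6.78, the lowest and highest of the 6 arrays. Tuft markers had a median of 0.18 (7 of 11 higher). Of these, 2 were apart upward (18.2%, 13.2% at the same levels), among them Trpm5, a taste transduction channel, at 5.08, 5.36 and 5.14 against 4.93, 4.85 and 4.84. The tuft median was 0.02 without Atg7KO-High-356 and -0.10 with the array SD as a covariate.

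Antigen presentation genes varied widely between samples of 1 group, and their shares apart downward were no higher than those of genes at the same levels. Of 10 MHC class II genes 9 were lower and 1 was apart (10.0%, 26.5% at the same levels), at a median of -0.53 (-0.82 with the array SD as a covariate), and their mean was 7.36, 7.90 and 8.20 against 8.63, 8.72 and 8.13. H2-DMb1, which helps load peptides on class II molecules, read 5.15, 6.27 and 7.19 against 8.12, 8.07 and 6.77. In the low gate it differed by 1.41 the other way, and the test between gates gave a limma adjusted p of 0.176. Of 20 class I genes 19 were lower and 4 apart (20.0%, 24.6% at the same levels), median -0.44, with the peptide transporter gene Tap1 at -0.84 and the tapasin gene Tapbp at -0.66. Of 34 interferon-stimulated genes 27 were lower and 7 apart downward (20.6%, 14.8% at the same levels), median -0.33 against 0.25 in the low gate. Irf8, an interferon-induced transcription factor, read 6.51, 6.55 and 6.68 against 7.22, 7.68 and 7.06, and Ifih1, a sensor of double-stranded RNA, 6.53, 6.45 and 6.64 against 7.14, 7.39 and 7.21. Genes of microbial sensing and inflammation had a median of -0.27 (23 of 31 lower, 5 apart downward, which is 16.1% against 15.0% at the same levels), with the adaptor Myd88 at -0.54. That median was -0.12 without Atg7KO-High-356 and -0.42 when genes needed a mean level in the top 40% to be tested.

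Tested leukocyte and stromal markers had levels near the middle of each array's values, where array medians over all probe sets ran from 4.32 to 4.49, and those that did not pass the filter lay lower. Of 22 leukocyte markers on the array 14 were tested, with list means from 4.42 to 4.48 in the knockout and 4.26 to 4.57 in wild type, and a median of -0.05. Ptprc, the pan-leukocyte CD45, did not pass the filter and read 3.26 to 3.77 over the 6 arrays. Of 18 stromal and endothelial markers 11 were tested, with means from 4.63 to 4.70 against 4.61 to 4.63 and a median of 0.09. These medians were -0.20 and -0.002 with the array SD as a covariate.

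Besides Gm12292, the genes with the smallest p for a difference between the gates were Rnf5, Gipc2, Ogfr and Dnajb7. Dnajb7, as given above, may have entered the test only through the knockout EGFP high arrays. Rnf5, which encodes an ER-bound ubiquitin ligase, differed by -0.45 in EGFP high and 1.72 in EGFP low cells, and Ogfr, the opioid growth factor receptor, by -0.81 and 0.96. Neither was called for that difference, though Rnf5 was with the replicate block, the strict filter or array weights, and without Atg7KO-High-386.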

How the data were processed

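The 14 samples of sorted crypt cells were each hybridised to 1 Mouse Gene 2.0 ST array. The values analysed are deposited log2 levels, 1 per array for each probe set. Per the submitters' processing notes, the authors made them with RMA in Affymetrix Expression Console. The method assumes that most genes do not differ and can narrow large differences. Values ran from 1.65 to 13.8, and arrays give no read depth, so the number of arrays limits precision.

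Of 25429 probe sets, 24675 had 1 gene symbol in the platform annotation, 0 had several and 754 had none and were left out. All 24675 gene IDs were found in RefSeq (GRCm38.p6), which gave biotypes, promoters and microRNA sequences. The sources used here name no build for the array design. The 15873 genes tested had, on 3 or more arrays, a value no lower than that array's 40th percentile. With limma 3.58.1 in R 4.3.3 (lmFit, then eBayes), 4 group means were estimated from the 14 arrays, leaving 10 residual and adding 4.54 prior degrees of freedom. P-values are two-sided and Benjamini-Hochberg adjusted over all genes tested. The fit was tested on simulated data before use. Of 100 genes given a change of 1 log2 unit 48% were called, and of 100 given 2 units 91%, with 5 unchanged genes called. Many changes of 1 log2 unit would thus be missed.

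Sample groups and numbers came from the titles. Numbers shared across the gates (356, 386 and 411) had correlations of deviations of 0.115, 0.182 and -0.04. With low-gate arrays of other numbers the highest were 0.044, -0.032 and 0.06, so 356 and 386 were closest to their own number. The labels do not say whether a number names a mouse, and the main fit did not pair samples. Its test between gates thus treats arrays that may share a mouse as independent, and the replicate block is given below. The members and the 35 gene lists were chosen with earlier results of these data known, and 844 of 902 list entries were on the array. Lists are described by counts and medians, without a test. Named genes are Atg7, Lgr5, Olfm4, Ascl2 and Cdkn1a, every called gene, the 12 higher and 12 lower genes with the smallest p and arrays apart (predicted names left out), up to 3 per list and 5 for the difference between gates.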

Additional observations from a re-analysis of the deposited data

Results flagged for a closer look

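For Gm12292 the effect of the knockout differed between the gates, by a test of the difference itself. The knockout effect was 2.01 in EGFP high and -0.33 in EGFP low cells, and the difference was 2.33 (SE 0.22, limma adjusted p = 0.00039). No sample stood apart from the others of its group by Dixon's test in the 16 groups of 4 low-gate arrays examined, which cover 5 genes and 3 gene classes. Groups of 3, as in the EGFP high gate, were not examined this way.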

How the results depend on the processing

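Against 2 genes called, limma called 5 with the 6 EGFP high arrays alone, 1 without a filter, 1 with a strict filter (mean at or above the 60th percentile), 1 with the Y-linked level as a covariate and 703 with array weights (238 higher, 465 lower). Among EGFP high arrays those weights put most on WT-High-412, at 3.27 against 0.711 to 1.44 on the others. Leaving out single arrays gave 1 to 43 genes, with 43 without Atg7KO-High-386. Gm12292 was called under every alternative run, at an adjusted p of up to 0.0162. Pxdn lost its call under 8 of them, and the strict filter left it out of the test. For the difference between gates, 1 gene was called, and 2 with the replicate block (title number as a random block, correlation 0.0732), with the strict filter and with array weights, the other being Rnf5. Leaving out single arrays gave 1 to 3, with Rnf5 and Zg16 added without Atg7KO-High-386. The block left the count of the main comparison at 2. The difference in array SD was 0.0117 after cyclic loess, and -0.123 to -0.0836 leaving out single arrays. Differences that changed sign were those of Lgr5 with median centring (-0.0138), Olfm4 with median centring (-0.0550), and with the array SD as a covariate Col1a1 (-0.00153), Itgb1 (0.151) and Hsph1 (0.0470). Leaving out single arrays, Lgr5 ran from -0.0771 to 0.230, Olfm4 from -0.0258 to 0.124 and Ascl2 from -0.354 to 0.0254, each turning without WT-High-411. For none of these was the cause tested. Of the list and class medians over all alternatives, 599 moved by less than the spread between arrays and 121 by more.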
